A study of Homo sapiens with 6 samples.

Results

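WNT ligands, Frizzled receptors and the proteins that modulate them were followed in BT549 cells after BNC2 knockdown. The members were taken by symbol from the count table: the WNT, FZD, DKK, SFRP, RSPO and LGR families, with LRP5, LRP6, ROR1, ROR2, AXIN1, AXIN2, APC, CTNNB1, LEF1, TCF7, TCF7L1, TCF7L2, PORCN, WIF1, RNF43 and ZNRF3. This rule used no measured value, although it was chosen with earlier results of these data known. It found 60 of the 23346 genes in the table. They comprise 19 ligands, 10 Frizzled receptors, 4 co-receptors, 9 secreted antagonists, 7 R-spondins or LGR receptors, 2 receptor ubiquitin ligases, 4 genes of the destruction complex including β-catenin, 4 TCF or LEF factors and PORCN.

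BT549 is an established breast cancer cell line with mesenchymal features, here of wild-type genotype. The BNC2 knockdown group (3 libraries) received 3 duplexes against BNC2 mixed in equal parts, and the control group (3 libraries) received a negative control (NC) siRNA. Both groups received 20 nM siRNA, and poly(A) RNA was sequenced 6 d later. The 3 replicates of a group are biological replicates of this 1 line, and untransfected cells were not analysed here.

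Secreted WNT proteins are acylated by PORCN and bind a Frizzled receptor together with LRP5 or LRP6, which protects β-catenin from a destruction complex built on AXIN and APC, so that β-catenin can act with TCF and LEF factors on target genes. Other WNT proteins signal through ROR receptors and the planar polarity machinery without β-catenin. DKK and SFRP proteins restrain the pathway outside the cell, whereas R-spondins, acting through LGR receptors, keep the ligases RNF43 and ZNRF3 from removing Frizzled. In breast cancer cells of mesenchymal type, WNT5A, WNT5B and ROR1 are well known components of β-catenin-independent signalling.

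The siRNAs are shown because they define the comparison. Each line gives the guide (antisense) strand from 5′ to 3′ from the list of the study, with its seed, bases 2 to 8, in capitals. The list numbers the antisense strand of the third BNC2 siRNA as (2), and it is given here as (3) because it pairs with sense strand (3) over 19 bases.
BNC2 siRNA (1): uUUACACUgaucacaagucct
BNC2 siRNA (2): uUGUCAUAgaaugucuucctt
BNC2 siRNA (3): uUUCGGCUucguacagaggtt
NC siRNA: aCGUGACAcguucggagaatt

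The 19 paired bases of each BNC2 siRNA lie in coding sequence of BNC2 on chromosome 9 of GRCh37, the assembly of hg19. The first lies in exon 4 of 7 (chr9:16583000-16583018), the second in exon 6 (chr9:16436834-16436852) and the third in exon 7 (chr9:16419045-16419063). The NC siRNA has no such match in the BNC2 transcript. BNC2 itself stood at 65.6, 51.5 and 58.6 CPM (counts scaled by library size) with NC siRNA and at 35.5, 36.6 and 41.6 CPM with BNC2 siRNA, which is 64.6% of the control level (log2 fold change -0.63 ± 0.09 SE, adjusted p = 8.2e-06). The libraries held 16093978 to 18246254 counts. All 9 mesenchymal marker genes on the list passed the low-count filter, 6 of them higher with BNC2 siRNA, ZEB2 lower (log2 fold change -1.22) and PRRX1 and TWIST2 not called. This is 77.8% called, against 72.9% of all genes tested (36.6% higher and 36.2% lower). None of 7 epithelial and none of 3 endothelial markers passed the filter. CDH1, EPCAM, ESRP1 and GRHL2 had at most 1 count in a library and CRB3 at most 7, ESRP2 had 8, 7 and 2 counts with NC siRNA and 13, 23 and 17 with BNC2 siRNA, and CLDN4 had 5, 2 and 4 counts and then 0. Of 4 leukocyte markers only CD14 passed, through the NC siRNA libraries alone (36, 30 and 23 counts against 12, 9 and 11), so that its lower level is no test, and PTPRC had at most 7 counts in a library. The part of any of these in the member results was not tested. In such bulk libraries, fewer cells expressing a gene and less of its RNA per cell cannot be told apart.

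Of the 60 members, 33 exceeded 1 CPM in 3 or more libraries and were tested. On the scale of the filter, counts per total counts without TMM, all of these but WNT2B exceeded 1 CPM in all 6 libraries. With BNC2 siRNA, 13 members were up-regulated and 16 were down-regulated (edgeR's quasi-likelihood test, Benjamini-Hochberg adjusted p of at most 0.05 over 12186 genes), and CTNNB1, WNT5A, FZD2 and FZD6 were not called. The background is broad: 72.9% of all genes tested were called, 36.6% higher and 36.2% lower. Against this, 29 of the 33 tested members (87.9%) were called. A change of at least 2-fold was called for 12 members (36.4%), where 18.1% of all genes had one. The 2-fold rises were SFRP1, ROR1, TCF7L1 and RSPO2, and the 2-fold falls were DKK1, SFRP2, RSPO3, WNT11, LGR4, AXIN2, FZD1 and WNT2B. WNT2B and FZD1 were still called but under 2-fold in some alternatives: WNT2B without NC siRNA replicate 3 (-0.86), without BNC2 siRNA replicate 3 (-0.79), with both strands counted (-0.86) and without the filter (-0.997), and FZD1 without NC siRNA replicate 2 (-0.98) or BNC2 siRNA replicate 2 (-0.98). The other 10 stayed at 2-fold or more in all 14 alternatives. The libraries of the groups did not overlap in 29 of the 33 members (87.9%), against 74.9% of all genes. The median log2 fold change was -0.09 over the members and 0.00 over all genes, and the median size of a change was 0.62 and 0.44. These shares describe the list and no test of the list was made.

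**Figure D1:**
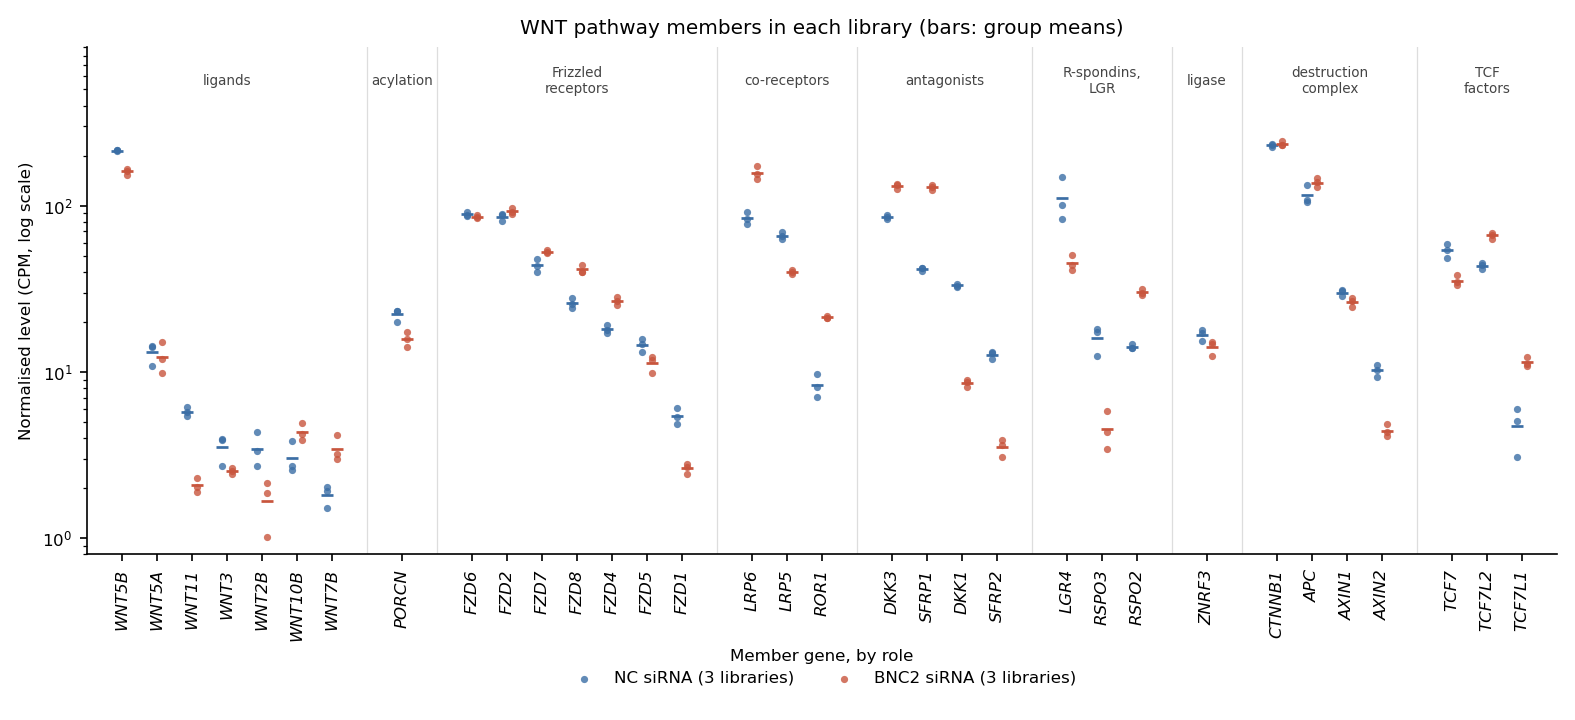
TMM-normalised level in CPM (log axis) of the 33 tested members in each of 3 NC siRNA (blue) and 3 BNC2 siRNA (red) libraries, ordered by role and by the NC mean, with short bars at the group means. The DKK1, SFRP2 and RSPO3 libraries separate downwards and the SFRP1, RSPO2 and ROR1 libraries upwards, while CTNNB1 and FZD6 libraries of the groups overlap.

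The secreted antagonists included the largest rise and the largest fall among the 33 tested members, while the untested LEF1, at 36 counts in all with NC siRNA and 1 with BNC2 siRNA, is described with the TCF and LEF factors. DKK1, which binds LRP5 and LRP6 and blocks WNT co-receptor function, lies at chr10:54074041-54077802. DKK1 stood at 33.0, 32.7 and 34.0 CPM with NC siRNA and at 8.14, 8.69 and 8.98 CPM with BNC2 siRNA. Its 3 knockdown libraries were all far below the controls, a 3.86-fold fall (log2 fold change -1.95 ± 0.09 SE, adjusted p = 1.07e-11). RSPO3 fell slightly more than DKK1 without NC siRNA replicate 1 (-1.999 against -1.973) or BNC2 siRNA replicate 3 (-2.036 against -1.981). SFRP1, a secreted Frizzled-related protein that binds WNT ligands (chr8:41119481-41166992), moved the other way. SFRP1 stood at 42.2, 42.2 and 40.3 CPM in the controls and at 134, 124 and 129 CPM after knockdown. The groups were well separated, a 3.10-fold rise (1.63 ± 0.06, adjusted p = 1.07e-12).

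SFRP2, of the same family (chr4:154701743-154710235), was lower where SFRP1 was higher. SFRP2 stood at 11.9, 13.2 and 13.1 CPM with NC siRNA and at 3.08, 3.89 and 3.63 CPM with BNC2 siRNA, a 3.60-fold fall without overlap (log2 fold change -1.85 ± 0.14, adjusted p = 3.11e-09). DKK3, a divergent member of the DKK family (chr11:11977754-12031316), stood at 82.9, 86.1 and 88.1 CPM and rose to 135, 126 and 134 CPM (0.62 ± 0.06, adjusted p = 7.07e-08). Its groups did not overlap, and the rise was 1.54-fold. Among the other antagonists, DKK2 had at most 3 counts in a library, WIF1 and SFRP4 had at most 1, and DKK4 and SFRP5 had 0 in every library.

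Since levels of different genes can be compared only per length, CPM were divided by the length of the MANE Select transcript in kb, and sums were taken over all members of a role, untested ones included. The summed antagonist level was 68.1 ± 1.37 CPM per kb with NC siRNA and 87.6 ± 2.63 with BNC2 siRNA (SD, n = 3 in each). Most of this rise was that of DKK3, the divergent member, from 33.9 ± 1.03 to 52.1 ± 1.94 CPM per kb. SFRP1 rose from 9.32 to 28.9, while DKK1 fell from 18.4 to 4.77 and SFRP2 from 6.38 to 1.77 CPM per kb. The sum is thus no measure of DKK1, SFRP1 and SFRP2 together. The makeup of this sum differed more than its total. DKK1 made up 26.5% to 27.5% of it in the NC libraries and 5.04% to 5.69% in the BNC2 siRNA libraries. SFRP1 went from between 13.0% and 14.2% to between 32.5% and 33.5%, and DKK3 remained the most abundant antagonist per length in every library.

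**Figure D2:**
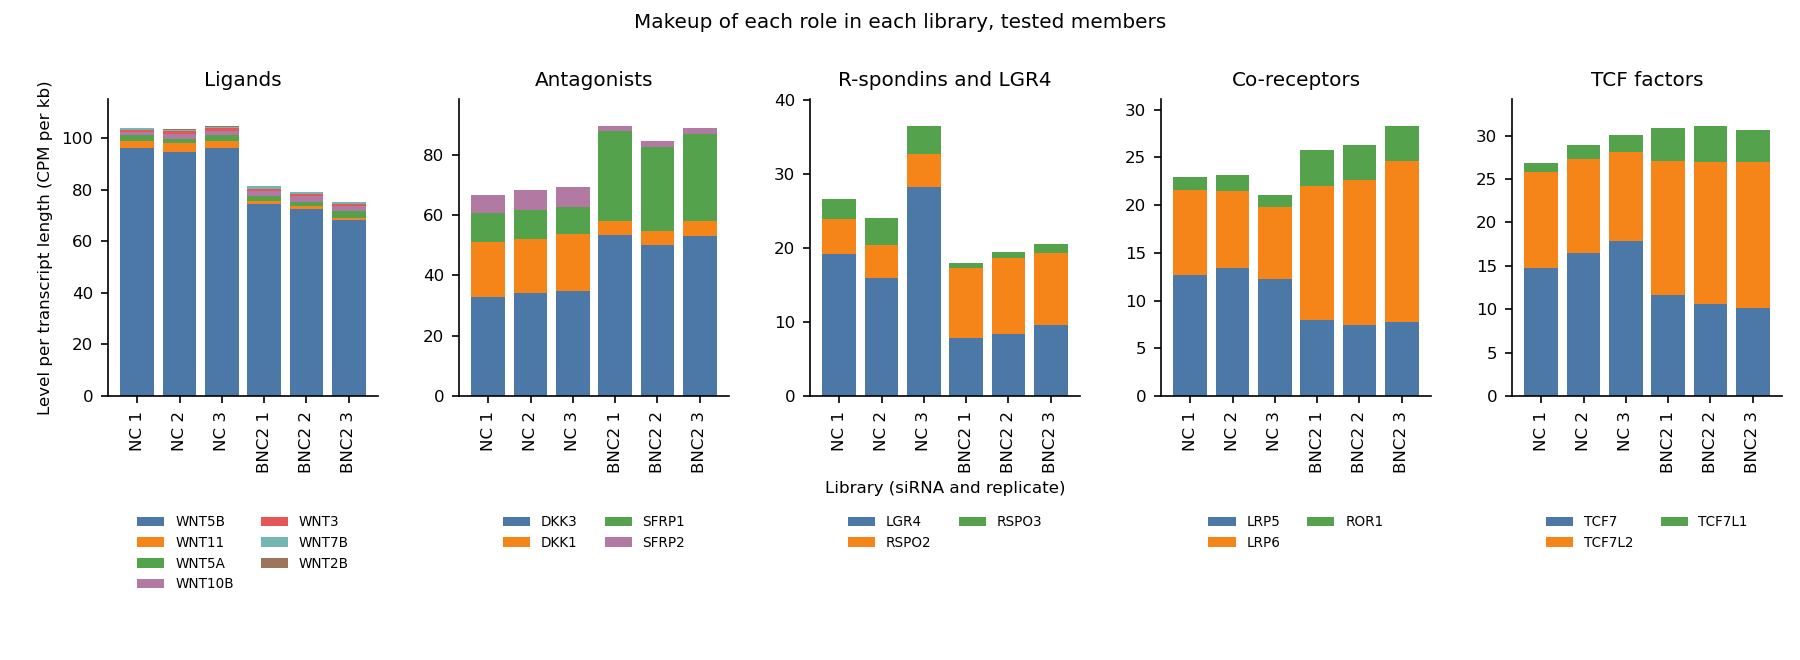
Stacked levels of the tested members in CPM per kb of MANE Select transcript, for 5 roles in each library (NC 1 to 3 and BNC2 1 to 3), each panel with its own axis starting at 0. WNT5B forms most of the ligand bar in every library, and DKK1 shrinks and SFRP1 grows among the antagonists. LGR4 gives way to RSPO2, LRP5 to LRP6 and TCF7 to TCF7L2 as the largest segment. In BNC2 3, RSPO2 exceeds LGR4 only narrowly (9.70 against 9.59 CPM per kb).

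Among the R-spondins, RSPO3 fell and RSPO2 rose, and LGR4, which binds R-spondins, fell. RSPO3 (chr6:127439816-127520626) stood at 12.4, 17.4 and 18.1 CPM with NC siRNA and at 3.43, 4.34 and 5.79 CPM with BNC2 siRNA. All knockdown libraries were below all controls, a 3.55-fold fall (log2 fold change -1.83 ± 0.18, adjusted p = 8.67e-08). RSPO2 (chr8:108911544-109095870), its close relative, stood at 14.6, 13.9 and 13.9 CPM in the controls and at 29.1, 31.4 and 29.9 CPM after knockdown. The groups did not overlap and the rise was 2.13-fold (1.09 ± 0.09, adjusted p = 6.62e-09).

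LGR4, the only R-spondin receptor of this family that passed the filter (chr11:27387508-27494337), stood at 101, 83.3 and 148 CPM with NC siRNA and at 40.9, 44.1 and 50.4 CPM with BNC2 siRNA. The controls were widely spread, with replicate 3 the highest, but all lay above the knockdown libraries (log2 fold change -1.29 ± 0.15, adjusted p = 6.69e-07). Without NC siRNA replicate 3 the fold change was -1.05 and LGR4 was still called. LGR5 had 0, 2 and 6 counts with NC siRNA and 0 in every BNC2 siRNA library, which allows up to 3 counts. RSPO4 had at most 2 counts and RSPO1 and LGR6 at most 1. The R-spondin and LGR sum was 29.0 ± 6.59 CPM per kb with NC siRNA and 19.3 ± 1.27 with BNC2 siRNA (SD, n = 3). This sum adds secreted R-spondins to their receptors, and its fall was that of LGR4, from 21.1 ± 6.36 to 8.59 ± 0.91 CPM per kb. RSPO2 rose from 4.59 to 9.77 and RSPO3 fell from 3.32 to 0.94 CPM per kb, so the sum does not describe the R-spondins. Per kb, RSPO2 made up 12.3% to 18.8% of the R-spondin and LGR sum with NC siRNA and 47.3% to 52.5% with BNC2 siRNA, while LGR4 went from between 65.9% and 77.1% to between 43.0% and 46.8%. ZNRF3, a ligase that removes Frizzled receptors from the cell surface, was 16.8 ± 1.36 CPM with NC siRNA and 14.1 ± 1.47 with BNC2 siRNA (SD, n = 3), and this small fall just passed (log2 fold change -0.25 ± 0.11, edgeR adjusted p = 0.0431). This call was lost without NC siRNA replicate 2 or 3 or BNC2 siRNA replicate 2 or 3 (edgeR adjusted p = 0.11, 0.08, 0.066 and 0.18). Its relative RNF43 had at most 1 count.

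Among the ligands, WNT5B was by far the most abundant (chr12:1639057-1756378). WNT5B stood at 215, 212 and 215 CPM with NC siRNA and at 167, 162 and 153 CPM with BNC2 siRNA. The fall was modest but clear of the narrow spread, to 75.0% of control (log2 fold change -0.41 ± 0.06, adjusted p = 4.09e-06). Per kb, WNT5B supplied 91.2% to 92.0% of the summed ligand level in the controls and 90.3% to 91.3% after knockdown. The sum itself was 105 ± 0.61 CPM per kb with NC siRNA and 79.0 ± 3.19 with BNC2 siRNA (SD, n = 3).

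WNT11, a ligand of the β-catenin-independent branch (chr11:75897369-75921780), fell most among the 7 tested ligands. WNT11 stood at 5.41, 6.16 and 5.72 CPM in the controls and at 2.04, 2.31 and 1.91 CPM after knockdown, a 2.75-fold difference without overlap (log2 fold change -1.46 ± 0.17, adjusted p = 1.03e-06). WNT2B (chr1:113009163-113072787) stood at 2.70, 3.36 and 4.33 CPM and at 1.86, 2.14 and 1.02 CPM (-1.03 ± 0.26, adjusted p = 0.00199). WNT3 was also lower (-0.47 ± 0.20, adjusted p = 0.0455), whereas WNT7B (0.93 ± 0.22, adjusted p = 0.00105) and WNT10B (0.51 ± 0.19, adjusted p = 0.0251) were higher. WNT2B, WNT3, WNT7B and WNT10B were close to the filter, with group means between 1.67 and 4.36 CPM.

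The WNT3 call did not hold without NC siRNA replicate 2 or 3 or without any BNC2 siRNA replicate (edgeR adjusted p from 0.08 to 0.14). The WNT10B call did not hold without NC siRNA replicate 1 or 3 or BNC2 siRNA replicate 2 (edgeR adjusted p = 0.11, 0.099 and 0.11). WNT5A, the close relative of WNT5B, was 13.1 ± 1.93 CPM with NC siRNA and 12.4 ± 2.69 with BNC2 siRNA (SD, n = 3), with overlapping groups (-0.09 ± 0.15, edgeR adjusted p = 0.587). WNT1, WNT3A, WNT7A, WNT8A and WNT9B had 0 counts in every library, and WNT2, WNT16, WNT8B and WNT10A had at most 3, 2, 1 and 1. PORCN, the acyltransferase that makes WNT proteins competent for secretion (chrX:48367347-48379202), stood at 19.9, 23.2 and 23.4 CPM and at 15.8, 17.3 and 14.1 CPM (-0.49 ± 0.10, adjusted p = 3.64e-04). The groups did not overlap. From the list of other pathway genes, WLS, the carrier of acylated WNT proteins, was lower too, from 119 ± 8.35 to 70.3 ± 2.19 CPM (SD, n = 3; -0.76 ± 0.07, edgeR adjusted p = 2.03e-08). Of the 3 tested genes for ligand release and modification on that list, 2 were lower and 1 was higher. The higher gene was MESDC2 (0.93 ± 0.07, edgeR adjusted p = 2.43e-09).

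**Figure D3:**
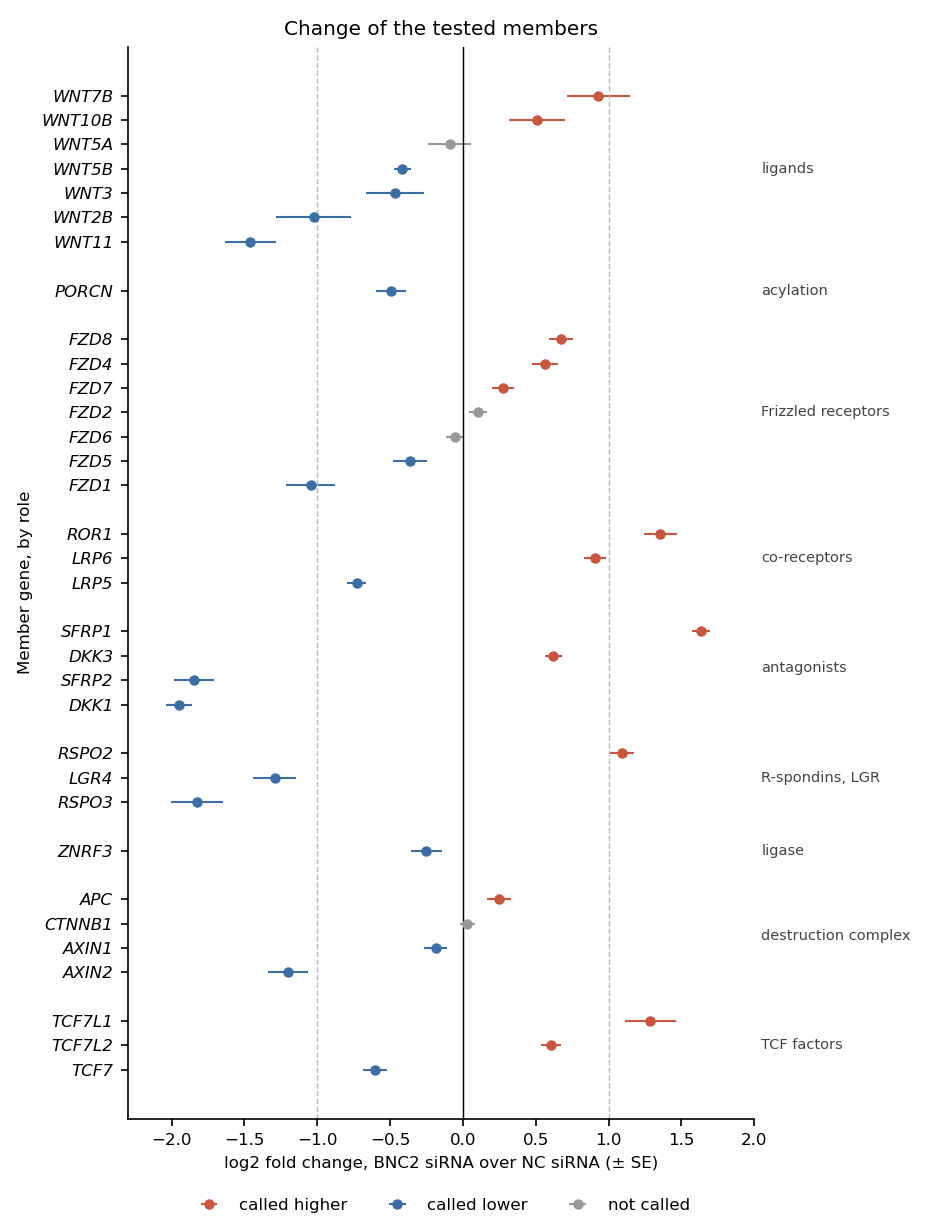
Log2 fold change of each tested member, BNC2 siRNA over NC siRNA, with its SE, by role. Red points were called higher, blue lower and grey not called, and dashed lines mark a 2-fold change. The antagonists span the whole range, from -1.95 (DKK1) to 1.63 (SFRP1), and the Frizzled receptors lie between -1.05 and 0.68.

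Of the 7 tested Frizzled receptors, 3 were higher, 2 were lower and 2 were not called, so that 71.4% were called against 72.9% of all genes. FZD6 (chr8:104310661-104345094) stood at 88.4, 92.0 and 86.8 CPM with NC siRNA and at 85.1, 84.1 and 87.5 CPM with BNC2 siRNA (log2 fold change -0.06 ± 0.06, adjusted p = 0.390). FZD2 (chr17:42634852-42638630) stood at 80.6, 88.4 and 89.04 CPM and at 96.8, 89.1 and 91.4 CPM (0.10 ± 0.06, adjusted p = 0.151). Neither was called, although the FZD2 groups did not overlap. These are the 2 most abundant Frizzled receptors per length, at 23.9 ± 0.71 and 22.8 ± 1.25 CPM per kb with NC siRNA (SD, n = 3), which do not differ beyond their spread.

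The next receptors in that order rose. FZD7 (chr2:202898578-202903164) stood at 43.7, 47.7 and 39.9 CPM and at 52.9, 51.7 and 54.1 CPM (log2 fold change 0.27 ± 0.07, adjusted p = 0.00353). FZD8 (chr10:35927175-35931224) stood at 24.2, 28.0 and 25.6 CPM and at 44.3, 40.0 and 39.9 CPM (0.68 ± 0.08, adjusted p = 1.3e-06). FZD4 (chr11:86656721-86666437) stood at 19.3, 17.9 and 17.2 CPM and at 25.4, 26.7 and 28.3 CPM (0.56 ± 0.09, adjusted p = 2.12e-05). In all 3 genes every knockdown library was above every control. PRSS23, on the opposite strand, shares 1399 of the 7387 exon bases of FZD4, and 41.8% of the stranded reads over FZD4 lay on that strand and were not counted. With both strands counted, the fold change of FZD4 was 0.51.

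FZD1 and FZD5 were lower. FZD1 (chr7:90893748-90900641) stood at 5.35, 6.05 and 4.88 CPM with NC siRNA and at 2.79, 2.43 and 2.67 CPM with BNC2 siRNA, a 2.06-fold fall without overlap (log2 fold change -1.05 ± 0.17, adjusted p = 3.6e-05). FZD5 fell to 77.7% of control (-0.36 ± 0.12, edgeR adjusted p = 0.00951), a call that did not hold without BNC2 siRNA replicate 1 (edgeR adjusted p = 0.062). The summed Frizzled level was 68.4 ± 2.35 CPM per kb in the controls and 75.1 ± 1.60 after knockdown (SD, n = 3). FZD10 had 0 counts throughout.

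The co-receptors LRP5 and LRP6 moved in opposite directions. LRP5 (chr11:68080059-68216743), a co-receptor of Frizzled for β-catenin signalling, stood at 65.3, 69.2 and 63.4 CPM with NC siRNA and at 40.9, 38.6 and 39.9 CPM with BNC2 siRNA (log2 fold change -0.73 ± 0.07, adjusted p = 4.98e-08). LRP6 (chr12:12268959-12419978), which has the same role, stood at 92.0, 82.8 and 77.7 CPM and at 145, 156 and 174 CPM (0.91 ± 0.08, adjusted p = 1.48e-08). Neither pair of groups overlapped. Per kb, LRP5 made up 54.8% to 58.2% of the co-receptor sum with NC siRNA and 27.2% to 30.7% with BNC2 siRNA, and LRP6 went from between 34.8% and 39.0% to between 54.8% and 60.0%.

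ROR1, a receptor tyrosine kinase-like receptor for WNT5 ligands (chr1:64239688-64647181), rose. ROR1 stood at 8.11, 9.75 and 7.10 CPM in the controls and at 21.8, 21.0 and 21.2 CPM after knockdown, a 2.56-fold difference without overlap (log2 fold change 1.35 ± 0.11, adjusted p = 1.49e-08). ROR2, its relative, had 3, 8 and 1 counts with NC siRNA and 1, 0 and 0 with BNC2 siRNA. With so few counts, the ratio of NC to BNC2 siRNA was 11.6 with a 95% counting interval from 1.72 to 497.

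Of the 4 members in the role of destruction complex and β-catenin, only AXIN2 changed 2-fold. APC2, a relative of APC on the list of other pathway genes, fell further (log2 fold change -2.56 ± 0.18) and is described below. AXIN2 (chr17:63524681-63557766), a scaffold of the complex and a widely used readout of β-catenin activity, stood at 10.3, 9.35 and 11.1 CPM with NC siRNA and at 4.13, 4.85 and 4.33 CPM with BNC2 siRNA. All knockdown libraries were below all controls (log2 fold change -1.20 ± 0.14, adjusted p = 5.77e-07). CTNNB1, which encodes β-catenin (chr3:41236232-41301587), stood at 236, 232 and 225 CPM and at 233, 231 and 245 CPM (0.03 ± 0.05, adjusted p = 0.610). Its groups overlapped, and it was the most abundant member of this role per length.

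AXIN1 (chr16:337440-402723) stood at 28.7, 30.9 and 30.6 CPM and at 27.9, 26.7 and 24.5 CPM (log2 fold change -0.19 ± 0.08, adjusted p = 0.0482). APC (chr5:112043215-112181936) stood at 134, 105 and 109 CPM and at 129, 138 and 146 CPM (0.25 ± 0.08, adjusted p = 0.0116), with overlapping groups. Both differences were small. The AXIN1 call was lost without NC siRNA replicate 2 or 3 or BNC2 siRNA replicate 2 or 3 (edgeR adjusted p = 0.091, 0.075, 0.098 and 0.17), and the APC call without NC siRNA replicate 2 or 3 or BNC2 siRNA replicate 3 (edgeR adjusted p = 0.11, 0.072 and 0.059).

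Among the TCF and LEF factors, the DNA-binding partners of β-catenin, TCF7 fell while TCF7L1 and TCF7L2 rose. TCF7 (chr5:133450372-133487556) stood at 48.6, 54.3 and 58.8 CPM with NC siRNA and at 38.2, 34.8 and 33.3 CPM with BNC2 siRNA (log2 fold change -0.60 ± 0.08, adjusted p = 5.03e-06). TCF7L2 (chr10:114710006-114927437) stood at 45.0, 43.9 and 41.7 CPM and at 63.1, 67.0 and 68.8 CPM (0.61 ± 0.07, adjusted p = 4.42e-07). TCF7L1 (chr2:85360515-85537510), often a repressor of the target genes, stood at 3.10, 5.10 and 5.96 CPM and at 11.2, 12.3 and 10.9 CPM (1.29 ± 0.17, adjusted p = 4.32e-06). No groups overlapped in these genes. The per-kb sum of these genes and LEF1 was 28.8 ± 1.61 CPM per kb with NC siRNA and 30.9 ± 0.25 with BNC2 siRNA (SD, n = 3), with TCF7 at 54.6% to 59.0% of it in the controls and at 33.0% to 37.6% after knockdown.

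LEF1 (chr4:108968701-109090112) was below the low-count filter, with 15, 11 and 10 counts with NC siRNA and 0, 1 and 0 with BNC2 siRNA. The ratio of NC to BNC2 siRNA was 34.9, with a 95% counting interval from 5.88 to 1416. In the fit without the low-count filter, which covered 18121 genes, LEF1 was called lower (edgeR adjusted p = 3.2e-06). FZD3 (edgeR adjusted p = 0.012) and ROR2 (edgeR adjusted p = 0.034) were called lower too. These calls rest on few counts, and this fit gave far smaller adjusted p-values than the main fit for many members. For LGR4, with its widely spread controls, the edgeR adjusted p was 1.3e-66 here and 6.7e-07 in the main fit. The calls from this fit are therefore weak. LGR5 was also called (edgeR adjusted p = 0.031), but all its counts came from NC siRNA libraries, so this is no test. FZD3 had 19, 12 and 19 counts with NC siRNA and 7, 5 and 7 with BNC2 siRNA, a ratio of 2.55 (95% counting interval 1.48 to 4.58). FZD9 had at most 27 counts, WNT4 and WNT9A at most 12 and WNT6 at most 7, and none of these passed without the filter (edgeR adjusted p = 0.12, 0.098, 0.07 and 0.24).

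**Figure D4:**
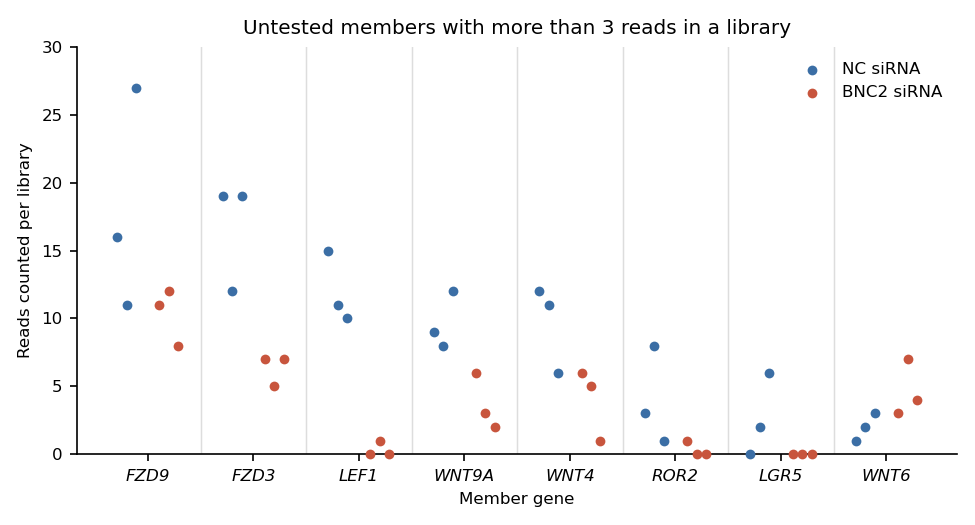
Reads counted in each library for the 8 untested members with more than 3 reads in any library, NC siRNA in blue and BNC2 siRNA in red. LEF1 has 10 to 15 reads in the controls and at most 1 after knockdown, and WNT6 reaches 7 reads after knockdown.

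Other genes of the WNT pathways were read from a list of 77, of which 65 were tested. With BNC2 siRNA, 36 of these were higher (55.4%) and 18 lower (27.7%), and 11 were not called, against 36.6% higher and 36.2% lower among all genes tested. A 2-fold change was called for 16 of them (24.6%, against 18.1% of all genes). No test of the list or of its branches was made. Of the planar polarity branch, which works without β-catenin, 9 of 10 tested genes rose, among them PRICKLE1 (log2 fold change 1.98 ± 0.16), PRICKLE2 (1.63 ± 0.09), CELSR1 (1.42 ± 0.08) and INTU (1.11 ± 0.17), and CELSR2 fell (-0.83 ± 0.11). Of 12 tested nuclear partners of β-catenin and TCF, 9 rose and TLE4 fell. CTNNBIP1, which keeps β-catenin from binding TCF factors, rose (1.68 ± 0.08), as did the co-repressor TLE1 (1.05 ± 0.09). PLCB4 of the calcium branch (1.99 ± 0.07) and DVL1, which relays the signal from Frizzled (1.17 ± 0.08), completed the 2-fold rises.

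The 2-fold falls among these genes included inhibitors and receptors. DACT1 (-1.37 ± 0.09) and DACT3 (-2.51 ± 0.21), which bind Dishevelled, were lower, as was APC2, a relative of APC (-2.56 ± 0.18). KREMEN1, the receptor through which DKK1 acts with LRP6, fell from 5.11 ± 0.79 to 1.16 ± 0.27 CPM (SD, n = 3; -2.12 ± 0.22). RECK (-1.94 ± 0.09) and GPR124 (-1.54 ± 0.17), which together form a receptor for WNT7 ligands, fell, and so did the casein kinase CSNK1G2 (-1.27 ± 0.08). NKD1, which also binds Dishevelled, had 32, 22 and 20 counts with NC siRNA and 3, 2 and 5 with BNC2 siRNA (-2.80 ± 0.43). It passed the filter through the NC siRNA libraries alone and so had to differ, and without it 36 of 64 genes were higher and 17 lower, with 15 called at 2-fold. Each of these 16 genes had an edgeR adjusted p below that of the NKD1 call, 2.15e-05, or equal to it.

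**Figure D5:**
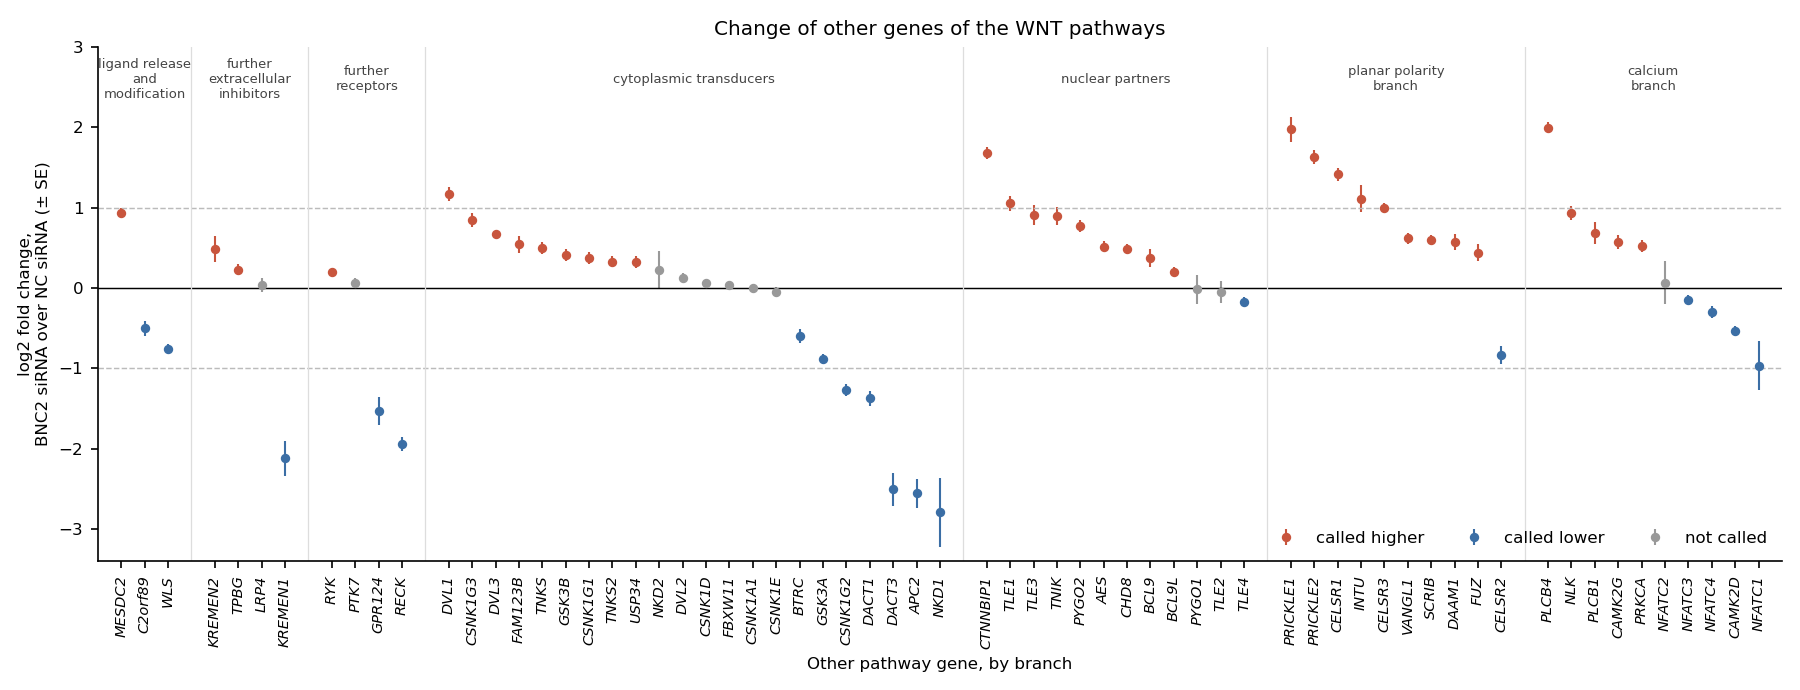
Log2 fold change with SE of the 65 tested other pathway genes, BNC2 siRNA over NC siRNA, by branch. Points above the zero line are higher with BNC2 siRNA, colours give the call, and dashed lines mark a 2-fold change. The planar polarity genes lie above zero except CELSR2, and the cytoplasmic transducers reach from -2.80 (NKD1, which passed the filter through the NC siRNA libraries alone) to 1.17 (DVL1).

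Genes widely used as targets of β-catenin and TCF were counted gene by gene. Of 33 such genes, 23 were tested and all 23 were called, 7 higher and 16 lower, with a median log2 fold change of -1.18. Over all genes tested 72.9% were called, 36.6% higher and 36.2% lower, with a median of 0.00. No test of the list was made. NKD1 and KREMEN1 are on this list too. NKD1 and MSX2 passed the filter through the NC siRNA libraries alone, and without them 7 of 21 genes were higher and 14 lower, with a median of -0.94. Lower were AXIN2, DKK1, TCF7 and ZNRF3 of the members, and CCND1 (log2 fold change -1.39 ± 0.06), VEGFA (-1.18 ± 0.06) and BMP4 (-1.29 ± 0.09) among the others. Higher were MYC (0.47 ± 0.06), CD44 (0.33 ± 0.05), TNFRSF19 (1.43 ± 0.11), SNAI2 (1.15 ± 0.06), BIRC5, FOSL1 and TBX3. Many of these genes also answer to other pathways, and what moved them was not tested.

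The promoters of the members were searched for CTTTGAT, the core letters of the TCF and LEF motif, on both strands in the 1000 bases before the start of the MANE Select transcript on GRCh37. It was found before 4 of the 33 tested members (12.1%), against 9.68% of 18920 promoters of the same length, and before 6 of the 27 untested members (22.2%). The 4 before tested members are shown with 20 bases on each side, on the strand of the transcript, with the motif in capitals. ROR1 and FZD8 were higher with BNC2 siRNA, and DKK1 and FZD1 were lower.
ROR1 (chr1:64238834-64238880, plus strand): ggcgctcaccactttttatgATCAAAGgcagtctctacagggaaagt
FZD8 (chr10:35931942-35931988, minus strand): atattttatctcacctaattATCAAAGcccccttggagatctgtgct
DKK1 (chr10:54073175-54073221, plus strand): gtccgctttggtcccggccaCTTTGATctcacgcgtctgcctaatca
FZD1 (chr7:90893096-90893142, plus strand): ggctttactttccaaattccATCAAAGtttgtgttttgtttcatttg

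The motif begins 834, 744, 846 and 632 bases before the start of ROR1, FZD8, DKK1 and FZD1. Where a member such as AXIN2 had no match, this says only that these letters are absent from this window. The 3′ UTRs were also searched for perfect matches to the seeds printed above. At least 1 seed of the BNC2 siRNAs was matched in 5 of the 16 lower members (DKK1, LGR4, FZD1, TCF7 and WNT2B), in 4 of the 13 higher members (ROR1, FZD8, LRP6 and APC), in 2 of the 4 members not called (FZD2 and CTNNB1) and in 22.7% of 10446 tested genes with a transcript. The median 3′ UTR was 1659 bases in the lower members, 2069 in the higher members and 1401 over these genes. SFRP2, RSPO3, WNT11 and AXIN2 had no match. The NC siRNA seed was matched in AXIN1 alone among the members and in 3.17% of these genes, and whether any match acted on its gene was not tested.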

How the data were processed

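Poly(A) RNA of 3 BNC2 siRNA and 3 NC siRNA cultures of BT549 was sequenced as single-end reads by the authors and aligned with STAR 2.6.1d to hg19. The authors deposited raw counts of uniquely mapped reads per gene, which in all 23346 genes equal the reverse-strand column of the library tables, so reads shared between near-identical genes are missing. Reads assigned to no gene (37.7% to 41.1% of a library) were left out. Libraries of 16093978 to 18246254 counts were scaled with TMM, and CPM are TMM-normalised. Genes exceeding 1 CPM in 3 or more libraries (by total counts, before TMM) were compared with the quasi-likelihood test of edgeR 4.0.16 (R 4.3.3), without a replicate block, with Benjamini-Hochberg adjustment over all 12186 genes. A call is an adjusted p of at most 0.05. The exact permutation test of a single gene cannot go below 0.1 with 3 libraries against 3. On counts simulated from these libraries, 12093 genes were tested, of which 199 had been changed 2-fold. The test recovered 194 of these 199 (97.5%) and made 6 false calls. In the data 72.9% of genes were called, and recovery under so broad a change was not tested.

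Groups and replicate numbers come from the labels. The members and the lists of pathway, target and marker genes were chosen with earlier results of these data known. Members that passed the filter were named with their fold change, those called at 2-fold or with a group mean of at least 20 CPM with every library, and the others with their highest count. Other pathway genes were named at 2-fold, up to 8 in each direction. WLS, MESDC2, CELSR2, TLE4 and the beta-catenin targets were named after their values were seen. Gene models (GENCODE release 44, lifted to GRCh37) gave positions, transcript lengths and 3′ UTRs, and siRNA strands came from the list of the study. Ratios of low counts carry exact conditional 95% intervals, which cover counting error only. Alternatives were the likelihood ratio test, DESeq2 1.42.0 and its size factors, total counts scaling, no filter on low counts, filterByExpr, a replicate block, both strands, and leaving out each library.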

Additional observations from a re-analysis of the deposited data

Results flagged for a closer look

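FZD4 was singled out because it had a signal in data that the comparison does not use, the reads on the strand that was not counted. With NC siRNA there were 249, 254 and 220 such reads and with BNC2 siRNA 315, 330 and 286, a mean of 310.33 per BNC2 siRNA library against 241 per NC siRNA library. They made up 41.8% of the stranded reads over FZD4. PRSS23 lies on that strand and overlaps FZD4 at its exons, and which gene these reads came from was not tested. Groups of 3 libraries were too small for a test of outlying libraries.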

How the results depend on the processing

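Under the 14 alternatives, 11 to 13 members were called higher and 13 to 17 lower, and 33 to 36 and 15 to 20 of the other pathway genes. Over all genes, the calls went from 8084 of 11842 (without NC siRNA replicate 2) to 9662 of 18121 (without the filter). BNC2 kept its fall, between -0.73 and -0.56. Of 462 fold changes of single members under an alternative, 424 kept direction and call, 35 kept direction without the call and 3 changed sign, none of them called: CTNNB1 with total counts scaling (-0.045) and without NC siRNA replicate 3 (-0.006), and WNT5A without BNC2 siRNA replicate 2 (0.056). With 1 library left out in turn, CTNNB1 lay between -0.006 and 0.053 and WNT5A between -0.265 and 0.056. For 25 of the 33 tested members nothing changed, and the lost calls were those of AXIN1, WNT3, ZNRF3, WNT10B, APC and FZD5. Without the filter, AXIN1, WNT3 and ZNRF3 were no longer called, and LEF1, FZD3, LGR5 and ROR2 were. The added calls rest on few counts, in a fit with far smaller adjusted p-values than the main fit for many members. The LGR5 call, counted among the 17, is no test, since all its counts came from NC siRNA libraries. DESeq2 called 12 members higher and 13 lower, without AXIN1, WNT3, ZNRF3 and WNT10B (DESeq2 adjusted p = 0.067, 0.093, 0.061 and 0.054). The labels do not say whether replicate numbers pair cultures. Same-numbered libraries correlated at -0.256, -0.091 and -0.151 in their deviations from the group means, and no library correlated best with its own number. With 3 libraries in a group, these correlations cannot settle whether cultures were paired. With the replicate block, 13 members were higher, 13 lower and 8400 genes were called in all. AXIN1, WNT3 and ZNRF3 lost their calls with the block (edgeR adjusted p = 0.093, 0.064 and 0.072). Total counts scaling moved the median of all genes by -0.076, and APC and WNT10B lost their calls with it (edgeR adjusted p = 0.076 and 0.053). With filterByExpr, AXIN1, WNT3 and ZNRF3 lost theirs (edgeR adjusted p = 0.06, 0.051 and 0.051). Levels per kb assume the MANE Select transcript, and 27 members were too low to test. BNC2 retained 64.6% of its control level in 1 cell line at 1 time.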
